A study of Mus musculus with 9 samples.

Results

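The clustered protocadherin genes were followed in ATAC-Seq libraries made while mouse embryonic fibroblasts (MEFs) were converted into induced pluripotent stem cells (iPSCs). Genes were chosen by name: every protein-coding gene of the GENCODE annotation on mm9 whose symbol begins with Pcdha, Pcdhb or Pcdhg, which gave 24 gene models of 22359. Because GENCODE folds most of the alpha cluster into 1 model under the symbol Pcdha11, with 9 separate first exons, and most of the gamma cluster into 1 model under Pcdhgc5, with 9 more, the members counted here are the 40 first exons: 10 Pcdha, 21 Pcdhb and 9 Pcdhg. Each alpha and gamma first exon was given the RefSeq symbol whose start lies at the same spacing along chromosome 18. A further 18 first exons that this annotation lacks were found as open reading frames; they bring the total to the 58 genes that RefSeq names, and are given apart from the 40.

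Clustered protocadherins are cell adhesion proteins of neurons. A neuron picks a few of the variable first exons of each cluster, more or less at random, and the resulting set of proteins acts as a surface barcode by which a neurite recognises its own sister branches. In the alpha and gamma clusters each variable first exon has its own promoter and carries the extracellular and membrane parts of the protein, and is spliced to shared constant exons that encode the intracellular tail. Beta genes are single exons with no such tail. The last genes of the alpha and gamma clusters, called C-type, are controlled differently from the alternate ones and are expressed more evenly among neurons. Choice is known to depend on DNA methylation, on the insulator protein CTCF with cohesin, and on enhancers downstream of the alpha and the gamma cluster. Their best-known functions are in the nervous system, and none of the cells measured here is a neuron.

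MEFs came from E13.5 embryos with an IRES-EGFP cassette after the stop codon of Oct4, and were infected with pMXs retroviruses for Oct4, Sox2, Klf4 and c-Myc. D0 holds the MEFs at day 0, and D0, D3 and iPSCs were not sorted. D6T- and D9T- hold Thy-1- cells of days 6 and 9, and D12S+ and D16S+ hold SSEA-1+ cells of days 12 and 16. D6 siH3.3 and D6 siNT are labelled as Thy-1- cells of day 6 whose MEFs had received siRNAs against both genes of histone H3.3 or a non-targeting siRNA; the knockdown is transient. Each of the 9 conditions has 1 library of bulk cells, so no difference below has a replicate check and no test was possible. Libraries held 13213117 (D9T-) to 31714845 (D0) tags and 36708 (D9T-) to 133132 (D6T-) merged peak regions.

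A member was counted as accessible in a library when a called region shared at least 1 bp with its first exon or the 1 kb before it. Its level is the highest pileup, the number of extended tags stacked at the tallest point, per 1000000 tags of the library (CPM). The intervals given are exact 95% Poisson intervals and cover counting error only. The files list called peaks alone, so a member with no region has an unknown low level and not a level of 0; the lowest pileup called was between 7 and 11 tags, or 0.331 to 0.530 CPM, depending on the library.

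In MEFs few first-exon windows held a called region, and although more members were called in most of the other libraries, their share stayed below that of other genes. At D0, 3 of 40 members had a region, against 51% of all protein-coding genes. The D3 library had 17 members (all genes, 63.1%) and D6T- had 8 (62.3%). In D9T-, the shallowest library, 3 members had one (46.1%). Among SSEA-1+ cells the count was 10 at D12S+ (58.1%) and 11 at D16S+ (58.8%), and iPSCs had 15 (59.6%). Both siRNA libraries had 3, beside 49.7% of all genes in D6 siH3.3 and 50.4% in D6 siNT. In all 9 libraries the share of members, 7.5 to 42.5%, was below the share of all genes.

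The windows were longer than those of most genes. The median member window was 3692.5 bp long against 1234 bp for all genes, which gives a region more room to be counted. Among the 509 other genes whose first exon is 2 kb or longer, 40.3% (D9T-) to 66.2% (D3) had a region. Each library's share of members was below this one too.

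**Figure D1:**
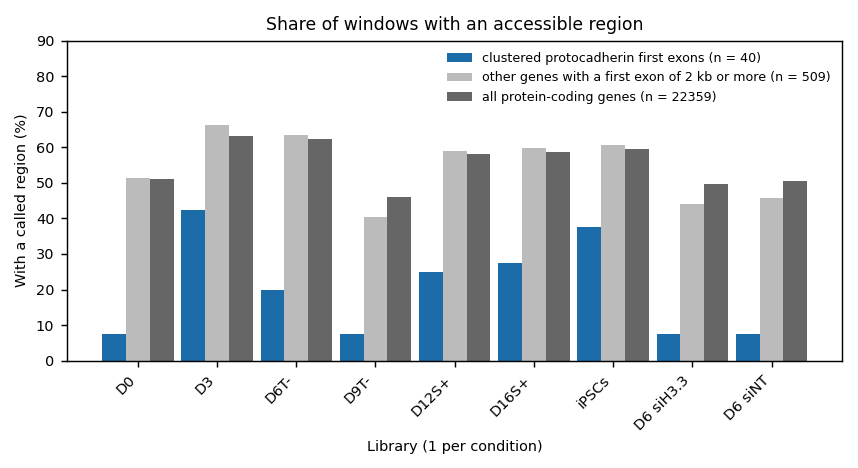
Bars give the percentage of windows with a called region in each of the 9 libraries (x axis, 1 library per condition) for the 40 clustered protocadherin first exons, 509 other genes with a first exon of 2 kb or more and all 22359 protein-coding genes. The members' bars run from 7.5% at D0, D9T- and both siRNA libraries to 42.5% at D3 and 37.5% in iPSCs, and lie below both other bars in every library.

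As called, the clusters differed in the libraries where their members had regions. No Pcdha member had a region at D0; 4 of 10 had one at D3, 3 at D6T-, 1 at D9T- and 2 in each of D12S+, D16S+ and iPSCs. Of the 21 Pcdhb members, none had a region at D0, D9T- or in either siRNA library, 1 had one at D6T-, 8 at D3, 4 at D12S+, 6 at D16S+ and 9 in iPSCs. Pcdhg members were present throughout, with 2 to 5 of 9 per library. Of all protein-coding genes, 46.1% (D9T-) to 63.1% (D3) had a region. This order depended on the number of regions called. With each library cut to its 36708 tallest regions, D3 kept Pcdhgc3 and Pcdhgc4 alone. Beta members were then left only at D16S+ (Pcdhb11, Pcdhb14 and Pcdhb19) and in iPSCs (Pcdhb8 and Pcdhb15). Without that cut, 29 of 40 members were called at least once over all libraries, 16 of them in 1 library alone. Of those 16, 8 were called in D3 and 6 in iPSCs. Of all protein-coding genes 4.53% were called in 1 library alone, 1.37% in D3 and 0.89% in iPSCs. The 11 never called were Pcdha1 to Pcdha4, Pcdha11, Pcdhb2, Pcdhb4, Pcdhb6, Pcdhb9, Pcdhb21 and Pcdhga11; of all protein-coding genes, 30.9% were never called.

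**Figure D2:**
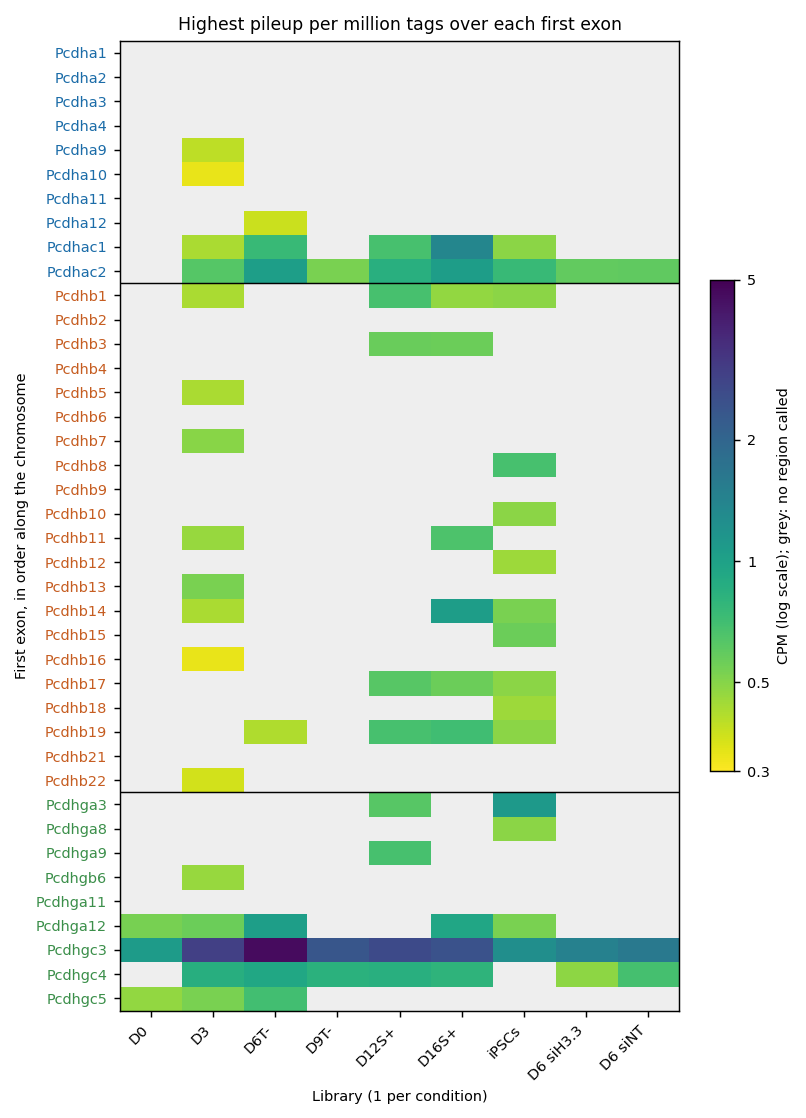
Colour gives the highest pileup per 1000000 tags (CPM, log colour scale) over each of the 40 first exons, in order along the chromosome, in each of the 9 libraries; grey means no called region, and the label colours mark Pcdha, Pcdhb and Pcdhg. Pcdhgc3 is coloured in all 9 columns, Pcdhac2 in 8 and Pcdhgc4 in 7, while most Pcdhb rows are coloured at D3 or from D12S+ onward, or not at all.

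The members called in the most libraries were the C-type genes Pcdhgc3 (9), Pcdhac2 (8) and Pcdhgc4 (7); the other C-type genes, Pcdhac1 (5) and Pcdhgc5 (3), were called no more often than the alternate gene Pcdhga12 (5). Pcdhgc3, the first C-type gene of the gamma cluster, was the one member with a region in all 9 libraries; 40.2% of protein-coding genes were called in all 9. Its level went from 1.07 CPM at D0 and 2.94 at D3 to 4.58 at D6T-. It was then 2.35 at D9T-, 2.67 at D12S+ and 2.46 at D16S+, and iPSCs had 1.24. The top value, at D6T- (interval 3.72 to 5.58), lay above that of D3 (2.36 to 3.62), and D0 (0.742 to 1.50) and iPSCs (0.855 to 1.74) overlapped each other at the bottom. The intervals of D3, D9T-, D12S+ and D16S+ overlapped one another, and that of D9T- (1.59 to 3.33) also overlapped iPSCs. Peaks over all genes were taller in the same libraries, with a median over called genes of 0.820 CPM at D0, 2.66 at D6T- and 0.978 in iPSCs. Relative to that median Pcdhgc3 varied less, from 1.27 times in iPSCs and 1.31 at D0 through 1.33 at D16S+ and 1.42 at D12S+ to 1.72 at both D6T- and D9T- and 1.85 at D3. In every library 59.1 to 79.9% of called genes had a lower peak.

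Pcdhac2, the last gene of the alpha cluster, had no region at D0 and one in each of the other 8 libraries. Before day 12 its levels were 0.628 CPM at D3, 1.03 at D6T- and 0.530 at D9T-. Later libraries had 0.852 (D12S+), 1.04 (D16S+) and 0.752 (iPSCs). All these intervals overlap. Each level was below the library's median over called genes, at 0.386 to 0.769 times. Pcdhac1, its upstream neighbour, was called at D3 (0.430 CPM), D6T- (0.748), D12S+ (0.681), D16S+ (1.37) and in iPSCs (0.489). The D16S+ value (interval 0.917 to 1.97) lay above those of D3 (0.229 to 0.735) and iPSCs (0.260 to 0.836).

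Among the other gamma C-type genes, Pcdhgc4 had no region at D0 or in iPSCs and was called in the other 7 libraries. In the time course its level stayed between 0.803 CPM, at D16S+, and 0.935, at D6T-, with 0.860 at D3, 0.833 at D9T- and 0.852 at D12S+, and counting error does not separate these. Pcdhgc5, the last gene of the cluster, was called early only. It had 0.473 CPM at D0, 0.529 at D3 and 0.701 at D6T-, and no region in any later library or with either siRNA. A second GENCODE transcript of Pcdhgc5 has a first exon that ends farther downstream and overlaps 3 more regions, 2 of them called in 8 libraries and the other in 1, and with it Pcdhgc5 was called in all 9. Pcdhga12, the last alternate gamma gene before the C-type block, was called at D0 (0.536 CPM), D3 (0.562), D6T- (1.03), D16S+ (0.945) and in iPSCs (0.527). These are not all the same region: the summit lay 236 to 345 bp past the start in the other libraries and 2589 bp past it in iPSCs, where the region at the start was not called.

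**Figure D3:**
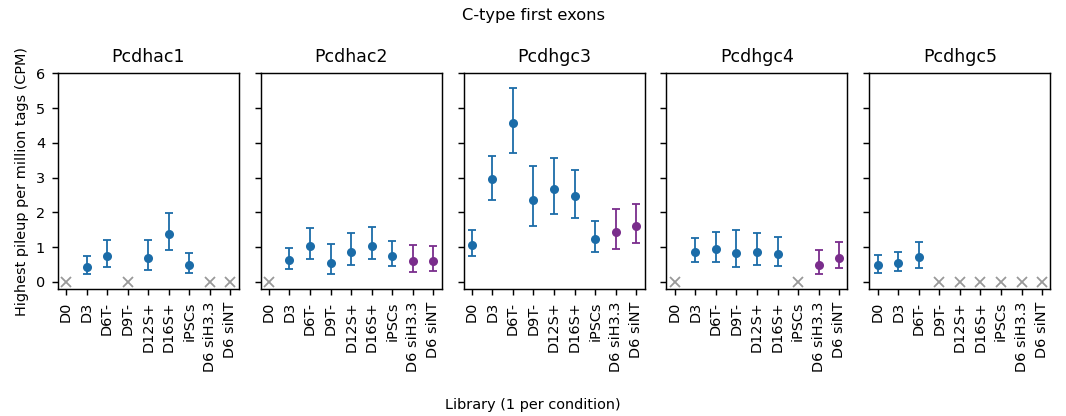
Points give the highest pileup per 1000000 tags of the 5 C-type first exons in each library, with exact 95% Poisson intervals that cover counting error only; purple marks the siRNA libraries and a grey cross a library with no called region, whose level is unknown. Pcdhgc3 peaks at 4.58 CPM at D6T- and is 1.07 at D0 and 1.24 in iPSCs, while Pcdhac2 and Pcdhgc4 stay between 0.482 and 1.04 wherever they were called.

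Most other alternate members were called at D3, from D12S+ onward, or not at all. Pcdhga3 reached 1.09 CPM in iPSCs, after 0.625 at D12S+ and no region elsewhere, and was the one alternate member to exceed its library's median over called genes, at 1.12 times. Pcdhb14 had 0.430 CPM at D3, 1.04 at D16S+ and 0.527 in iPSCs. Pcdhb19 was called at D6T- (0.421), D12S+ (0.681), D16S+ (0.709) and in iPSCs (0.489). Pcdhb1 was called at D3 (0.430), D12S+ (0.681), D16S+ (0.472) and in iPSCs (0.489). The 3 late libraries alone called Pcdhb17, at 0.625, 0.567 and 0.489 CPM in D12S+, D16S+ and iPSCs. These were not all the same region. The summit lay at 2089 bp from the start in D12S+, -11 bp in D16S+ and 2051 bp in iPSCs. Pcdhb3 appeared at D12S+ (0.568) and D16S+ (0.567), and Pcdhb11 at D3 (0.463) and D16S+ (0.661). The Pcdhb11 calls were different regions too, with summits 648 bp past the start at D3 and 2211 bp at D16S+. Pcdhga9 was called at D12S+ alone (0.681), and Pcdhb8 in iPSCs alone (0.677).

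D3 was the library with the most members, and many of its calls were faint. The 17 members there had a median pileup of 14 tags, where the lowest pileup called in that library was 10. In iPSCs the median was 13 tags over a lowest call of 10, and medians of 11 or 12 were found in D9T-, D12S+ and D6 siH3.3, which called fewer members. When each library was cut to its 36708 tallest regions, the number in D9T-, 2 members stayed at D3 and 5 in iPSCs, and D16S+ had the most with 8. Pcdhgc3 stayed in all 9.

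The comparison of MEFs with iPSCs asks which members opened between the start and the end point. A region was present in iPSCs and not at D0 for 13 members, or 32.5%, against 11.9% of all genes, and present at D0 and not in iPSCs for 1, Pcdhgc5, against 3.26%. Pcdhgc3 and Pcdhga12 had a region in both, the same region for Pcdhgc3 but different ones for Pcdhga12, whose D0 region near the start was not called in iPSCs. No region was called in either library over 24 members. The 13 were Pcdhac1, Pcdhac2, Pcdhga3, Pcdhga8 and 9 beta genes: Pcdhb1, Pcdhb8, Pcdhb10, Pcdhb12, Pcdhb14, Pcdhb15, Pcdhb17, Pcdhb18 and Pcdhb19. The tallest in iPSCs were Pcdhga3 with 1.09 CPM, Pcdhac2 with 0.752, Pcdhb8 with 0.677, Pcdhb15 with 0.564 and Pcdhb14 with 0.527, followed by Pcdhac1, Pcdhb1 and Pcdhb10 with 0.489 each. At the Pcdhgc3 region the iPSCs to D0 ratio was 1.16 (exact interval 0.695 to 1.93), under the 2-fold that 11.8% of genes called in both reached. No ratio is given for Pcdhga12. The larger share of members than of genes gaining a region depended on how regions were counted. With equal numbers of regions per library the 13 became 4 (10%), against 16.5% of all genes and 20.6% of those with a first exon of 2 kb or more. With a window ending 100 bp past the start they became 5 (12.5%), against 11.9% and 14.3%.

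The 18 unannotated first exons, added after seeing the data, were compared as called. Equal numbers of regions and the shorter window were not applied to them. At D0, 2 of them had a region, Pcdhga7 (0.441 CPM) and Pcdhgb8 (0.410), and 13 had one in iPSCs. Those 13 held 10 to 19 tags, where the lowest pileup called in iPSCs was 10. Pcdhga7 was called in 6 libraries and reached 0.982 CPM at D6T-, and Pcdhgb7 in 5, up to 0.908 at D12S+. None of the 18 was called at D9T- or in either siRNA library. Over all 58 first exons, 24 had a region in iPSCs and not at D0, and 1 had the reverse. The background share for these reading frames was not computed apart from that of the annotated genes.

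Regions lay in different places in the clusters. Over the 9 libraries, the strongest region of an accessible Pcdha member had its summit within 500 bp past the start of the first exon, or before the start, in 14 of 16 cases, and that of a Pcdhg member in 27 of 29. Among Pcdhb members this held in 7 of 28. In 20 of the 28, over 14 genes, the summit lay 1680 to 2331 bp inside the exon, toward the end of the protein-coding stretch; 8 of these 20 were in iPSCs, 6 at D3, 3 at D16S+, 2 at D12S+ and 1 at D6T-. The beta genes with a summit near the start were Pcdhb1 in 4 libraries, Pcdhb3 in 2 and Pcdhb17 at D16S+. Most beta counts thus describe accessibility within the gene and not at its promoter: with a window of 1 kb upstream to 100 bp past the start, 1 beta member was left at D3, 2 at D12S+, 3 at D16S+ and 1 in iPSCs.

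**Figure D4:**
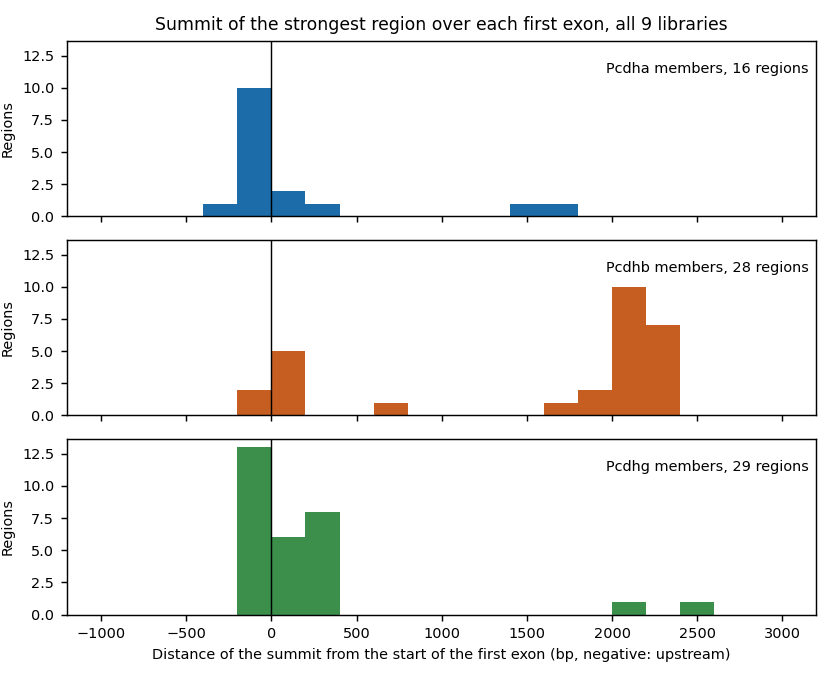
Histograms give the distance of the summit of the strongest region from the start of the first exon, in bp (x axis, bins of 200 bp, negative is upstream), for all accessible member and library pairs of the 3 clusters. Alpha and gamma summits gather around the start, in 14 of 16 and 27 of 29 cases, and 20 of 28 beta summits lie between 1680 and 2331 bp inside the exon.

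The sequence of the windows, read from the NCBIM37 assembly, differed from that of other genes. In the stretch from 1 kb upstream to 100 bp past the start, members had a median GC content of 37.9% (32.97 to 57.6%) against 49.6% for all protein-coding genes. The 5 C-type members had 48.5%. The observed to expected ratio of CpG was 0.353 at the median over members and 0.412 over all genes, and the highest value among members, 0.772, belonged to Pcdhgc3. Next were Pcdhga11, which was called in no library, at 0.697 and Pcdhac2 at 0.672. Over the 5 members called in 5 or more libraries the median was 0.475, and over the 11 never called 0.407, with ranges that overlap (0.169 to 0.772 and 0.0977 to 0.697).

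The CTCF consensus, searched on both strands by 1 strict form of the motif, occurred in the full window of 20 of 40 members (50%). This compares with 10.3% of all protein-coding genes, whose windows are shorter, and 25.1% of the other genes with a first exon of 2 kb or more. Per kb of window the members had 0.135 matches, all genes 0.0775 and the long-exon genes 0.0760. In the shorter stretch up to 100 bp past the start, 1 member had a match, Pcdhac2, or 2.5%, against 8.06% of all genes. Of the 21 Pcdhb members, 13 had a match on the strand opposite to the gene, each between 2254 and 2427 bp past the start. Of these 13, 10 also had a region with its summit at 1500 bp or more, as did 4 beta members without a match. In the 13 regions that had both, summit and match were 71 to 574 bp apart, at the median 252. Alpha members had 4 of their 6 matches on the gene's own strand within 1500 bp past the start. Each match was counted, also where paralogs hold it at a like position, so the shares are not those of independent sites. A match is a description of letters, and CTCF binding was not measured.

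Tags that fit several places were removed upstream, and near-identical paralogs can lose signal by it. On exact 51-bp words, the tag length, a median of 97.1% of a member's window was unique in the genome, and 86.6% in the lowest, Pcdha11. Non-clustered protocadherins had a median of 100%. The 4 members below 90% were all Pcdha genes, and the 5 members called in 5 or more libraries were all at or above 99.4%. The 11 never called had a median of 92.3%. The part of this in the absent regions was not tested.

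Knockdown of H3.3 was compared with the non-targeting siRNA to ask whether an early, transient depletion of this histone variant changes accessibility at day 6. The same 3 members, Pcdhac2, Pcdhgc3 and Pcdhgc4, had a region in both libraries, and the other 37 had one in neither. With equal numbers of regions per library D6 siNT kept all 3 and D6 siH3.3 kept Pcdhgc3 alone. As called, regions in D6 siNT alone were found over 0 members (all genes, 3.27%), and in D6 siH3.3 alone over 0 (2.59%). Pcdhgc3 had 1.61 CPM in D6 siNT and 1.45 in D6 siH3.3, a ratio of 0.900 (exact interval 0.524 to 1.53). Pcdhac2 had 0.597 and 0.589, a ratio of 0.987 (0.401 to 2.39). Pcdhgc4 had 0.689 and 0.482, a ratio of 0.700 (0.270 to 1.71). None of the 3 differed by 2-fold, as 1.06% of genes called in both did, and the median ratio over all such genes was 1.04. Tag numbers of 9 to 35 could not show a difference smaller than these intervals. The Pcdhgc4 region in D6 siH3.3 did not pass a stricter q-value.

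D6T- and D6 siNT are both labelled as Thy-1- cells of day 6 and differ by transfection and by library. They may also differ by sorting, since the study's list of libraries gives a sort for D6T- and none for either siRNA library. Culture medium and plating density may differ as well, since the paper describes both separately for knockdown experiments. D6T- had regions over 5 members that D6 siNT lacked, Pcdhga12 (1.03 CPM), Pcdhac1 (0.748), Pcdhgc5 (0.701), Pcdhb19 (0.421) and Pcdha12 (0.374), against 12% of all genes. The reverse was found for 0 members and 0.103% of genes. Peaks were lower in D6 siNT over nearly all genes: 83.2% of those called in both differed by 2-fold or more, and the median ratio was 0.376. Pcdhgc3 had a ratio of 0.351 (interval 0.231 to 0.521), near that median. Pcdhac2 with 0.580 (0.268 to 1.20) and Pcdhgc4 with 0.737 (0.351 to 1.51) had higher ratios, with intervals that include the median of all genes. Scaled by the regions found in all 9 libraries, the median ratio of the 3 turned from 0.580 to 1.66. That median is the ratio of Pcdhac2, which rests on 22 tags in D6T- and 13 in D6 siNT. Pcdhgc3 had 98 and 35 tags, where the shared regions had median pileups of 73 and 26.

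Between and past the clusters, 59 merged regions lay outside all first-exon windows, 34 of them in the 200 kb past the last gene. The alpha cluster, 258 kb long, held 5 and the 257 kb of the beta cluster 1. The gap between alpha and beta held 3, the gap between beta and gamma 4 and the gamma cluster 12. Counting all regions, the 200 kb past the last gene had 18 at D0, where the genome averages 6.10 per 200 kb, 29 at D6T- (9.99), 13 at D16S+ (3.79) and 14 in iPSCs (4.62). Density was also taken from 1 kb before the alpha cluster to the last base of the gamma cluster, both gaps included. Per 200 kb it was 3.07 at D0 and in each siRNA library. The genome averages there were 6.10 at D0, 3.55 in D6 siH3.3 and 3.48 in D6 siNT. D3 had 9.42 (genome 8.06), D6T- 8.55 (9.99) and D9T- 2.63 (2.75). Later the density was 6.36 at D12S+ (4.3), 7.89 at D16S+ (3.79) and again 9.42 in iPSCs (4.62). The stretch past the last gene is gene-rich, holding Diap1, Hdac3, Rell2, Fchsd1 and Arap3, and 5 of its 34 regions lay at promoters of these genes.

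Of the 10 regions with the highest mean level, 5 lay at promoters of other genes and were called in all 9 libraries. They were Diap1 at chr18:38094437-38095584 (mean over the 9 libraries 3.22 CPM), Taf7 at chr18:37803581-37804237 (2.49), Hdac3 and Rell2 at chr18:38114074-38116239 (1.58), 3222401L13Rik at chr18:37815088-37815812 (1.43) and Fchsd1 at chr18:38128997-38129922 (1.20). The Taf7 and 3222401L13Rik promoters lie between the beta and the gamma cluster, so accessible promoters stood next to members with no region at D0, with 1.36 CPM at Taf7. The other 5 lay in introns of Diap1, a formin gene that follows the gamma cluster, 7.96 to 82.6 kb past its last base.

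The Diap1 regions split by whether they lasted into the late libraries. The one at chr18:38011603-38012724 was called in all 9. It had 1.04 CPM at D0, 1.72 at D3 and 3.32 at D6T-, then 2.20 at D9T-, 2.21 at D12S+ and 1.42 at D16S+, and 0.941 in iPSCs. Relative to the library's median over called genes it was 1.27 times at D0, 1.25 at D6T-, 1.61 at D9T- and 0.962 in iPSCs. Also called in all 9, chr18:38039439-38040270 went from 1.01 CPM at D0 to 3.88 at D6T- and 0.452 in iPSCs. Relative to that median it was 1.23 times at D0, 1.46 at D6T- and 0.462 in iPSCs. Its iPSCs to D0 ratio in CPM was 0.447 (exact interval 0.210 to 0.892). The genome-wide share of intervals that leave out 1 was not computed. Among the 13 regions outside the windows called in both libraries, it was the only one with such an interval. Its neighbour at chr18:38036787-38037362 was called in all but iPSCs, with 0.883 CPM at D0, 2.76 at D6T- and 0.992 at D16S+. Neither D16S+ nor iPSCs had a region at chr18:38009000-38009980, which had held 1.10 CPM at D0, 2.12 at D3 and 2.71 at D6T-, then 1.74 at D9T- and 0.738 at D12S+. The same was true of chr18:38083909-38084348, with 0.851 CPM at D0, 2.12 at D3 and 3.13 at D6T-, then 1.74 at D9T- and 1.36 at D12S+. At D0 and D6T- the regions above that were missing in iPSCs stood at 1.02 to 1.35 times the library's median over called genes.

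In the 200 kb past the last gene, 9 of 34 regions (26.5%) were called at D0 and not in iPSCs, and 3 (8.82%) in iPSCs and not at D0. The genome-wide shares over 210151 merged regions were 26.4% and 17%. These shares are of regions called in any of the 9 libraries, so they do not give the part of the D0 regions that was lost. Of the 13 D0 regions past the last gene that lay at no other promoter, D12S+ kept 8, D16S+ 6 and iPSCs 4. Of the 65677 D0 regions of the genome that lay over no gene's window, 28.1% were called at D12S+, 15.6% at D16S+ and 17% in iPSCs. Over first-exon windows more were called in iPSCs alone than at D0 alone, both for members (13 and 1) and for all genes (11.9% and 3.26%).

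After the alpha cluster, 30.5 kb past its last base in the gap before Pcdhb1, chr18:37377440-37378173 was called in all 9 libraries and lies in no annotated gene. It had 0.599 CPM at D0, 0.794 at D3 and 1.36 at D6T-. At D9T- and D12S+ it had 0.984 and 1.31, at D16S+ 2.13, and in iPSCs 0.452. The D16S+ value (interval 1.55 to 2.84) was above those of D0 (0.361 to 0.936), D3 (0.509 to 1.18) and iPSCs (0.233 to 0.789). Relative to the library's median over called genes it was 1.15 times at D16S+ and 0.462 to 0.731 in the rest of the time course. Closer to the cluster, chr18:37348412-37349060, 1.43 kb past its last base, was called from D0 (0.599 CPM) to D9T- (0.908) and in both siRNA libraries, and not at D12S+, D16S+ or in iPSCs. These regions were not matched to named enhancers here, since no file used gives enhancer positions.

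Between the siRNA libraries, 3 of the 34 regions past the last gene were called in D6 siNT and not in D6 siH3.3 (genome, 4.48%), and 0 the other way (4.87%). At the gap region after the alpha cluster, D6 siNT had 0.918 CPM and D6 siH3.3 0.750. The Diap1 region called in all 9 and nearest to the gamma cluster had 1.47 and 1.13, a ratio of 0.766 (exact interval 0.420 to 1.37). Of the 18 regions outside the windows called in both, 2 had an interval that leaves out 1, in opposite directions. The genome-wide share of such intervals was not computed, so these 2 are not read as effects of the knockdown. The Diap1 intron region chr18:38043131-38043750 had 1.24 CPM in D6 siNT and 0.482 in D6 siH3.3, a ratio of 0.389 (0.161 to 0.852). The promoter of 3222401L13Rik had 0.689 CPM in D6 siNT and 1.45 in D6 siH3.3, with a ratio interval of 1.08 to 4.25. The CTCF consensus was found within 150 bp of the strongest summit in 6 of the 59 regions (10.2%), against 5.83% of 210151 regions of the genome, and in none of the 10 with the highest mean level.

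**Figure D5:**
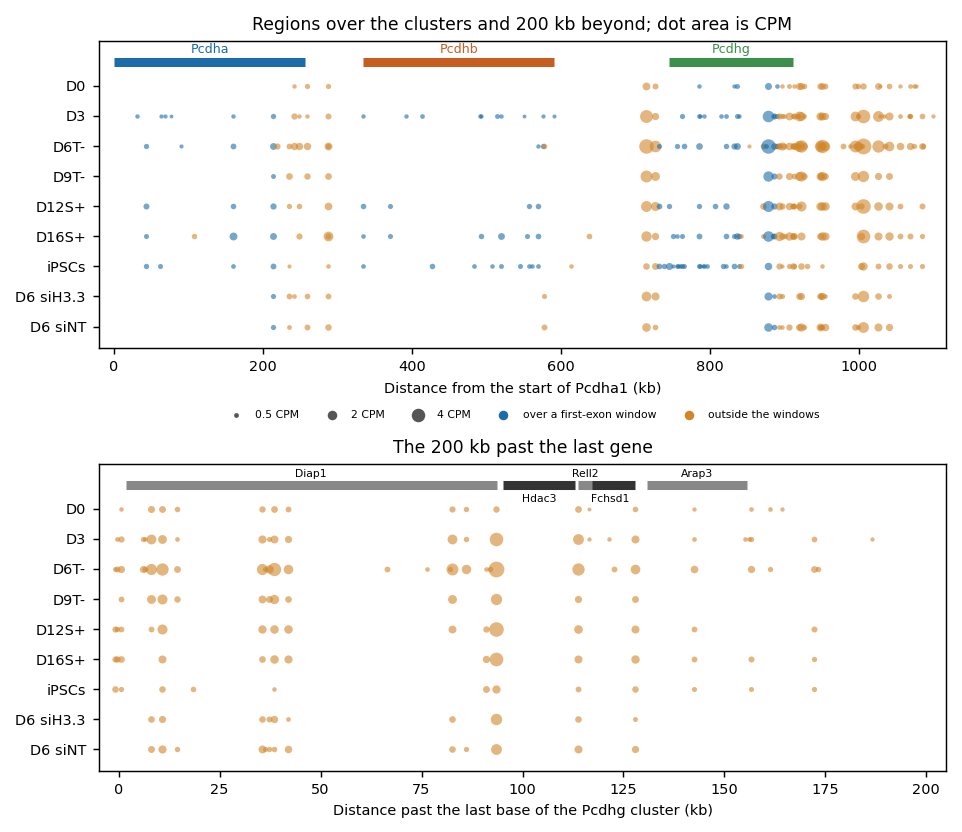
Dots mark merged regions in the 9 libraries (rows), with area proportional to CPM; blue dots lie over a first-exon window of the 58 and orange dots outside. The upper panel gives the distance from the start of Pcdha1 in kb and the lower one the distance past the last base of the gamma cluster, with bars for the clusters and the neighbouring genes. Blue dots are few at D0 and more frequent at D3 and in iPSCs, while the dots near 8 and 83 kb past the gamma cluster are missing at D16S+ and in iPSCs.

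Other genes of the same system were called more often than the members. These counts can be read against the 40.2% of all protein-coding genes called in all 9 libraries and the 46.1 to 63.1% called per library; window lengths differ between the lists and the difference was not tested. Of 17 genes for CTCF, cohesin, its loaders and release factors, DNA methyltransferases and the chromatin silencers of the clusters, 16 had a region in all 9 libraries, the exception being Setdb1, a histone H3 lysine 9 methyltransferase, with none at D9T- and in D6 siNT and 0.694 CPM at D0. Of 18 intracellular partners of protocadherins, such as kinases and members of the WAVE actin complex, 12 were called in all 9. Marcks, an actin-binding protein, was the one missing at D0 alone.

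Protocadherin genes outside the clusters, which have their own separate promoters, were in between. Of 13, 7 to 10 were called per library, 6 of them in all 9, and Pcdh11x, Pcdh12 and Pcdh20 in none. Pcdh1 had no region at D0 or in iPSCs and 1.97 CPM at D9T-. Pcdh9 was called at D0 (0.946), D3 (0.529), D6T- (5.56) and in D6 siH3.3 (0.750). Of 19 cadherin genes 6 to 12 were called per library and 4 in all 9. Cdh1, the epithelial cadherin of pluripotent cells, was called at D3 (0.463 CPM), D12S+ (1.36), D16S+ (1.65) and in iPSCs (1.17), and Cdh11, a cadherin of mesenchyme, in all libraries but D9T- and iPSCs, with 0.568 CPM at D0 and 2.94 at D6T-.

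Markers followed the labels of the libraries in part. Of 10 pluripotency genes, 2 to 4 had a region in each library up to D9T- and in each siRNA library, against 8 at D12S+, 9 at D16S+ and all 10 in iPSCs, and their summed level was 1.32 CPM at D0, 12.9 at D16S+ and 9.56 in iPSCs. Nanog had none before D12S+. Of 10 fibroblast genes, 6 had a region at D0, 9 at D3, 2 at D9T- and 5 in iPSCs, with summed levels of 3.88 CPM at D0, 12.4 at D6T- and 3.35 in iPSCs. Col1a1 and Twist2 had none from D9T- onward in the time course, and Thy1 and Pdgfrb still had one in iPSCs. Neural genes, markers of the cells known to express these protocadherins, were called for 4 to 6 of 7 per library, with Sox10 at D0 (0.473 CPM) and in iPSCs (0.602) and Neurod1 at D3, D6T-, D12S+, D16S+ and in iPSCs. Of 4 blood markers, Ptprc, Itgam and Spi1 had no region in any library and Cd68 had one in all 9, from 0.473 CPM at D0 to 2.67 at D6T-. Of 4 endothelial markers, Cdh5 had none in any library, Pecam1 was called at D0, D3 and D6T-, and Kdr and Tek were called in all libraries but D9T-. The part of cell composition in the member counts was not tested, and in bulk cells fewer open cells and less open chromatin per cell cannot be told apart.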

How the data were processed

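ATAC-Seq reads of 9 libraries, 1 per condition, were processed by the authors: STAR mapping to mm9 with at most 2 mismatches and unique placement, Picard duplicate removal, removal of mitochondrial reads, and MACS2 (2.1.0.20151222) peak calling per library without a control, at a q-value of 0.05, with tags extended to 200 bp and no Tn5 shift in the recorded command. Versions of STAR and Picard are not given in the sources used here. Of the deposited columns, the pileup (a signal in whole, unscaled tags) and the deposited −log10 q-value were used, and the files hold called peaks alone.

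Rows sharing a base were merged per library, and pileup was given per 1000000 tags of the library (CPM). Windows were the first exon of the transcript with the longest coding sequence plus 1 kb upstream (GENCODE vM1, NCBIM37, the same build; 0 of 704164 peak rows ran past a chromosome end). The 18 further first exons were reading frames of at least 2000 bp. With 1 library per condition no test was run; ratio intervals are exact binomial ones at 95%, and single libraries have counting error only. PCR duplicates had been removed by position, without molecular identifiers. Sizes use a 2-fold rule. Named were the 5 C-type genes, the 15 members and 10 outside regions with the highest mean CPM (no region as 0), and up to 8 members per one-sided pair. The members and gene lists were chosen with earlier results of these data known. Counting code was tested on simulated data. Tools were Python 3.11.15, numpy 2.4.6, scipy 1.17.1, numba 0.67.0 and matplotlib 3.10.9. Alternatives were a −log10 q of at least 3, equal numbers of regions, the summit inside the window, windows to 100 bp past the start or from 3 kb upstream, all first exons, scaling by regions found in all libraries, and, added after seeing the data, the 58 first exons.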

Additional observations from a re-analysis of the deposited data

How the results depend on the processing

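Of 108 recomputed values, 82 stayed within 1.5 times of those reported. No paired analysis was possible because each condition has 1 library, and leaving out a replicate was not possible for the same reason.

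Equal numbers of regions per library moved the members called to 1 at D0, 2 at D3, 1 at D6T-, 3 at D12S+, 5 in iPSCs and 1 in D6 siH3.3, those called in one only of D0 and iPSCs from 14 to 4, of D6 siNT and D6 siH3.3 from 0 to 2 (Pcdhac2 and Pcdhgc4, both in D6 siNT) and of D6T- and D6 siNT from 5 to 2, which turned to D6 siNT. The regions past the last gene became 11 at D0, 13 at D3 and 11 at D6T-. With the window to 100 bp past the start, members called were 5 at D3, 7 at D16S+ and 6 in iPSCs, and those in one only were 6 for D0 and iPSCs and 3 for D6T- and D6 siNT. A −log10 q of at least 3 gave 1 for D6 siNT and D6 siH3.3 (Pcdhgc4) and 3 for D6T- and D6 siNT. With the 18 unannotated first exons, chosen after seeing the data, the libraries D0, D6T-, D16S+ and iPSCs called 5, 16, 18 and 28, and in one only 25 for D0 and iPSCs and 13 for D6T- and D6 siNT. Scaling by 12409 regions found in all libraries turned the median D6T- to D6 siNT ratio of members from 0.580 to 1.66. It is the median of 3 members and the ratio of Pcdhac2.

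The causes were not tested. Most calls stood within a few tags of the lowest pileup called, and the part of depth in the absence of a region was not tested.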
